A study of Mus musculus with 2 samples.

Results

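The cyclins of the cell cycle were described in mouse cells labelled as erythroid progenitors: Ccna1, Ccna2, Ccnb1, Ccnb2, Ccnd1, Ccnd2, Ccnd3, Ccne1, Ccne2 and Ccnf. These 10 genes were chosen by symbol from 43346 Ensembl gene rows, of which 21461 were nuclear protein-coding genes, and all 10 were found in both the gene and the transcript tables. Total RNA, depleted of ribosomal RNA, came from cells that the labels name CFU-E (colony-forming unit erythroid), progenitors already committed to the red cell line, isolated as primary cells of male C57BL/6J adult mice that were 5 to 6 weeks of age. The study held 1 group of 2 biological replicates with no treatment and no mutant allele named in the labels, so the tables tell which cyclins these cells carried and how alike both libraries were, and no comparison between conditions exists. Both replicates carry the same donor identifier and different biosample identifiers, so part of their spread may be technical. The protocol linked in the labels is titled for isolation from bone marrow, and how many animals were pooled is not given in the sources used here. Kit, the receptor that marks such progenitors, had only 0.42 TPM in replicate 1 and 0.51 TPM in replicate 2. Slc4a1, the anion exchanger of maturing red cells, had 693 and 423 TPM. These values of Kit and Slc4a1 go against the CFU-E label, and the cells are called by it only as the label. All but Kit of 10 erythroid markers reached 10 TPM in both libraries. They included Tfrc (284 and 213 TPM), Klf1 (53.4 and 18.9), Epor (21.99 and 12.05) and Gata1 (19.7 and 10.1), and also the globin genes Hba-a2 and Hbb-bs.

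Cyclins bind cyclin-dependent kinases (CDKs) and switch them on, and the cell cycle advances because different cyclins are made and destroyed in turn. D cyclins act in early G1 with Cdk4 or Cdk6 and start the inactivation of the retinoblastoma proteins. E cyclins with Cdk2 carry the cell into DNA replication, A cyclins act from S phase on with Cdk2 and Cdk1, and B cyclins with Cdk1 drive mitosis. Cyclin F differs from the others in that it binds no CDK and serves as the substrate receptor of an SCF ubiquitin ligase. Transcripts of the A, B and F cyclins are known to peak late in the cycle under promoters that often hold CCAAT boxes, the letters bound by NF-Y, and a CHR element, bound by the DREAM and MuvB complexes. In the mouse erythroid lineage cyclin D3 is known for setting how many divisions precede terminal maturation.

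Promoter windows in RefSeq (build GRCm38.p6), reaching from 250 bases before to 50 after a start site, were found for 6 of the 10 genes in 7 entries: Ccna1, Ccnb1, Ccnb2, Ccnd3 with a pair of starts, Ccne1 and Ccnf. The windows of Ccnb1, Ccnb2 and Ccnf are shown because these late-cycle genes were among the most abundant cyclins, and both Ccnd3 windows because the transcripts given reads in the libraries belong to both starts. Ccnb1 lies on the minus strand at chr13:100786437-100786736, Ccnb2 on the minus strand at chr9:70421505-70421804, Ccnf on the minus strand at chr17:24251360-24251659, and Ccnd3 on the plus strand at chr17:47504801-47505100 for the distal start and chr17:47593217-47593516 for the proximal start. Capitals mark exact matches to CCAAT or TTTGAA (a CHR element) on either strand, and no match overlapped another.
Ccnb1: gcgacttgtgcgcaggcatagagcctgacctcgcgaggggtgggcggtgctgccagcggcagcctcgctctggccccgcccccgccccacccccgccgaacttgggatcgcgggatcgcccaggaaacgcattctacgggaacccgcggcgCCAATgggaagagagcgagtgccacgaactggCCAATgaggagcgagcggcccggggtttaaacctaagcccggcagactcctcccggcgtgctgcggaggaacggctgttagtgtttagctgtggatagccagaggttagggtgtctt
Ccnb2: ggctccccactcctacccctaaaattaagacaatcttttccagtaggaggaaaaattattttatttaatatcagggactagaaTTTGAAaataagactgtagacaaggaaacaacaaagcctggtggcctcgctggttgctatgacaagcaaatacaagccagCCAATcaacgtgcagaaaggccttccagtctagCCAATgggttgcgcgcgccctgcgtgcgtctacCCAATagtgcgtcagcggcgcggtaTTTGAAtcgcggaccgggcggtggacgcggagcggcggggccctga
Ccnf: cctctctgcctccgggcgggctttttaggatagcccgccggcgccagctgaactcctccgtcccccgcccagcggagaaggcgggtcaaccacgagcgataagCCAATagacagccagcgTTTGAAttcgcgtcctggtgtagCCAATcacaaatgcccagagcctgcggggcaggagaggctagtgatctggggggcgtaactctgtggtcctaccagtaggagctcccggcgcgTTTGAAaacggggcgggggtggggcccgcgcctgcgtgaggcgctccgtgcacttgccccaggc
Ccnd3 distal start: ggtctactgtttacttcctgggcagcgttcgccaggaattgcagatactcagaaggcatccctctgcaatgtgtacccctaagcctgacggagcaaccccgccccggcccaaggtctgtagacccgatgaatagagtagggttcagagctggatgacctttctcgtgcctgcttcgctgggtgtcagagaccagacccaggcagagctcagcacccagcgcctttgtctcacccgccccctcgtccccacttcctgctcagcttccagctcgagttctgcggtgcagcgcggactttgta
Ccnd3 proximal start: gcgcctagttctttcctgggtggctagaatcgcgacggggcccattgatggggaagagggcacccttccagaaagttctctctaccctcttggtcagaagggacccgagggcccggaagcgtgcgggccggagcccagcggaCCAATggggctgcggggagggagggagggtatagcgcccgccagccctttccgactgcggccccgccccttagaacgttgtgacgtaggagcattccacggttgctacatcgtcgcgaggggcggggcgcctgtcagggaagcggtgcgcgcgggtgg

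The Ccnb2 window held CCAAT 3 times, each 33 bases from the next, and TTTGAA 2 times, at positions -167 and 4 relative to the start site. Ccnb1 held CCAAT 2 times, 32 bases apart, and no TTTGAA. Ccnf held CCAAT 2 times, 40 bases apart, and TTTGAA 2 times, the nearer one at -14. All of these CCAAT matches stood on the strand of the gene. The proximal Ccnd3 window held CCAAT once, at -108, and Ccna1 held it once on the opposite strand, at -107. Neither motif was found in the distal Ccnd3 window or in that of Ccne1. The E2F-type letters TTTGGCG and TTTCCCG, searched on both strands, were in none of the 7 windows. Among 32851 promoter windows of the same length, CCAAT was in 37.4%, at least 2 copies of it in 11.7%, TTTGAA in 17.9%, TTTGGCG in 1.56% and TTTCCCG in 3.39%, and 2.09% had at least 2 CCAAT together with TTTGAA, as Ccnb2 and Ccnf did. These are exact letter matches, not measured binding, and variants of these motifs were not searched.

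Gene levels below are TPM, which scales estimated counts for transcript length and library size, and each mean is given with the SD over n = 2. Of the 10 cyclins, 7 reached 1 TPM in both libraries, against 23.9% of nuclear protein-coding genes. The same 7 reached 10 TPM in both, against 4.79% of those genes. They were Ccna2, Ccnb1, Ccnb2, Ccnf, Ccnd3, Ccne1 and Ccne2, so each cyclin class was represented by at least 1 gene at that level. Ccnd2 and Ccnd1 were under 1 TPM, and Ccna1 had no counts. RNA was pooled from many cells, so fewer cells carrying a transcript and less of it per cell cannot be told apart.

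**Figure D1:**
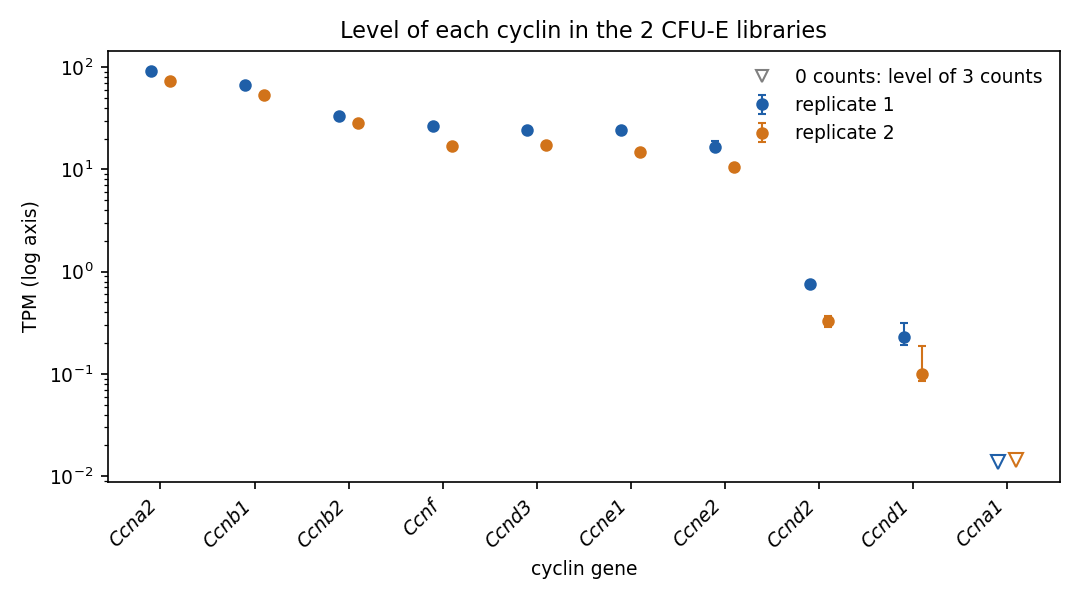
TPM of each of the 10 cyclins (log axis) in replicate 1 and replicate 2, in order of mean level; bars are the authors' deposited credibility intervals, hidden by the points where narrow, and open triangles mark the level that 3 counts would have given for Ccna1, which had 0 counts. Ccne2 stands above Ccnd2 by 21.8-fold in replicate 1 and 32.1-fold in replicate 2.

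Among the D cyclins, Ccnd3 was nearly alone. Ccnd3 (chromosome 17, 47505051 to 47599691) had 24.2 TPM in replicate 1 and 17.4 TPM in replicate 2, from 7995 and 5460 expected counts. Ccnd2 (chromosome 6, 127125162 to 127152193) had 0.76 and 0.33 TPM, from 681 and 272 counts. Both libraries thus placed Ccnd3 far above Ccnd2, by 31.9-fold in replicate 1 and 52.7-fold in replicate 2, a difference of 5.36 ± 0.51 on the log2 scale. Ccnd1 (chromosome 7, 144929931 to 144939925), the D cyclin best known from growth factor responses in other tissues, had 0.23 and 0.10 TPM from 130 and 56 counts. Ccnd1 was lower than Ccnd2 by 3.30-fold in each library, and its deposited credibility interval reached from 0.193 to 0.313 TPM in replicate 1 and from 0.0844 to 0.189 TPM in replicate 2. Ccnd3 took 96.1% and 97.6% of the summed TPM of the D cyclins (96.8% ± 1.07). By estimated counts, which are not corrected for the longer transcripts of Ccnd2 and Ccnd1, that share was 92.6% ± 2.51.

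Both E cyclins were present at similar levels. Ccne1 (chromosome 7, 38097984 to 38107534) had 24.2 and 14.8 TPM, from 5015 and 2840 counts. Ccne2 (chromosome 4, 11191351 to 11204779) had 16.6 and 10.6 TPM, from 7333 and 3934 counts. The ranges of both genes over the libraries overlapped, whereas within each library the credibility intervals were separate and Ccne1 was higher, by 1.46-fold in replicate 1 and 1.40-fold in replicate 2. Ccne1 therefore took 59.3% and 58.3% of the E cyclin TPM. Its share of their estimated counts was only 40.6% and 41.9%, so the order of Ccne1 over Ccne2 rests on dividing by their effective lengths, which were 1270 and 2703 bases in replicate 1 and 1271 and 2460 bases in replicate 2.

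Ccna2, the A cyclin of dividing somatic cells (chromosome 3, 36564865 to 36572150), was the most abundant of the 10 cyclins in both libraries. It had 92.8 TPM in replicate 1 and 73.7 TPM in replicate 2, from 39034 and 21756 counts. These levels ranked it 137th and 105th among the 21461 nuclear protein-coding genes. Ccna1, the A cyclin known for its role in the male germ line of the mouse (chromosome 3, 55045469 to 55055501), had 0 counts in both libraries. A count of 0 allows up to 3 counts, which would be 0.0137 TPM in replicate 1 and 0.0144 TPM in replicate 2, so Ccna2 was at least 6791-fold and at least 5129-fold higher per library. Such limits, like the credibility intervals, cover counting and read assignment error alone. Whether PCR copies of a molecule were counted again was not examined.

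The B cyclins followed. Ccnb1 (chromosome 13, 100778650 to 100786570) had 67.4 and 53.2 TPM, from 16429.3 and 11535.9 estimated counts. Ccnb2 (chromosome 9, 70407692 to 70421547) had 33.7 and 28.8 TPM, from 7253 and 5896 counts. Ccnb1 was thus higher by 2.00-fold in replicate 1 and 1.85-fold in replicate 2 (0.94 ± 0.08 on the log2 scale), and took 66.7% and 64.9% of the B cyclin TPM. That order held for all transcripts of Ccnb1 together and not for its coding transcripts alone, which are described with the transcripts below. Ccnf (chromosome 17, 24222198 to 24251484) had 26.5 and 17.1 TPM, from 12461 and 7540 counts, lower per length than Ccnb2 by 0.55 ± 0.28 on the log2 scale.

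In the order of mean level, Ccna2, Ccnb1 and Ccnb2 stood apart from each other and from all that followed, with ranges that did not overlap. The next neighbours did not differ beyond their spread: Ccnf was 1.09-fold of Ccnd3 in replicate 1 and 0.984-fold in replicate 2, and the ranges of Ccnd3 and Ccne1 overlapped. Ccnf and Ccne1, which are not neighbours, had overlapping ranges over the libraries, but Ccnf was higher in each library with separate credibility intervals. Ccne2 followed at 13.6 ± 4.24 TPM, and was 21.8-fold above Ccnd2 in replicate 1 and 32.1-fold in replicate 2. The SD of each of these means includes a shift of the whole TPM scale, on which nuclear protein-coding genes summed to 124202 TPM in replicate 1 and 74869 TPM in replicate 2. With TPM rescaled so that nuclear protein-coding genes alone fill the scale, Ccna2 had 866 ± 168, Ccnb1 626 ± 119, Ccnb2 328 ± 79.9, Ccnf 221 ± 10.9, Ccnd3 214 ± 26.3, Ccne1 196 ± 2.33 and Ccne2 138 ± 5.61. That rescaling left the order of the means as it was.

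The 10 cyclins summed to 286 TPM in replicate 1 and 216 TPM in replicate 2. A and B cyclins together took 67.7% and 72.0% of that sum (69.9% ± 3.08), with 33.3% ± 1.21 from A cyclins and 36.6% ± 1.87 from B cyclins. E cyclins took 13.0% ± 1.75, cyclin F 8.60% ± 0.938 and D cyclins 8.53% ± 0.393. The cyclins of S phase and mitosis thus outweighed those of G1 in both libraries. Together the cyclins held 0.154% and 0.161% of all expected counts.

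**Figure D2:**
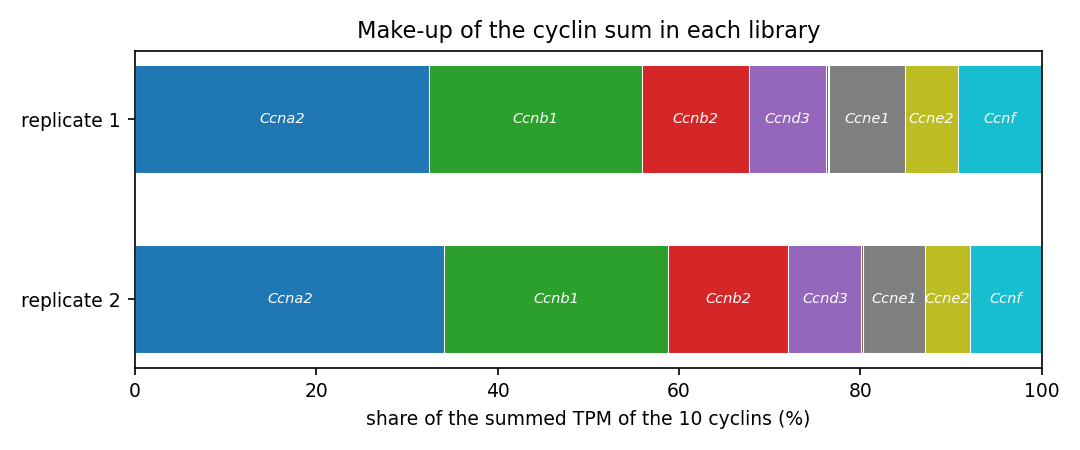
Share of the summed TPM of the 10 cyclins taken by each gene (x axis, percent) in replicate 1 (upper bar) and replicate 2 (lower bar). Ccna2, Ccnb1 and Ccnb2 fill 67.7% of the sum in replicate 1 and 72.0% in replicate 2, and Ccnd2 and Ccnd1 are the slivers beside Ccnd3.

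All 4 kinases that these cyclins bind had reads, and 3 of them reached 1 TPM in both libraries, against 23.9% of nuclear protein-coding genes. Cdk1, the mitotic kinase, had 72.9 and 44.5 TPM. Ccnb1 stood at 0.924-fold of it in replicate 1 and 1.20-fold in replicate 2, so that their order in TPM changed between libraries. By uncorrected counts Ccnb1 was above Cdk1 in both libraries, at 1.18 and 1.03 on the log2 scale. In TPM Ccna2 was above Cdk1 by 1.27-fold and 1.66-fold. Cdk2, the partner of the E and A cyclins, had 5.54 and 4.83 TPM, and each of Ccne1, Ccne2 and Ccna2 exceeded it in both libraries, Ccne1 by 4.36-fold and 3.07-fold and Ccna2 by 16.8-fold and 15.3-fold. Cdk4 had 13.2 and 3.35 TPM and Cdk6 1.56 and 0.69 TPM. Ccnd3 exceeded Cdk4 by 1.84-fold and 5.19-fold and Cdk6 by 15.5-fold and 25.2-fold. On the log2 scale Ccnd3 over Cdk4 was 1.63 ± 1.06 in TPM, and 2.91 and 3.61 by uncorrected counts. Transcript ratios of this kind say nothing of the amounts of protein.

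Among 7 CDK inhibitors, 3 reached 1 TPM in both libraries. The share of nuclear protein-coding genes that did so, 23.9%, is the background for each list in this paragraph. Ccnd3 and Cdkn2c, an INK4 inhibitor that binds Cdk4 and Cdk6, were nearly level, with Ccnd3 at 0.921-fold in replicate 1 and 0.982-fold in replicate 2. Ccne1 was above Cdkn1b, the inhibitor p27 of Cdk2 complexes, by 1.54-fold and 1.97-fold, while by uncorrected counts it was lower, at -0.84 and -0.53 on the log2 scale. Ccnd3 over Cdkn2c likewise changed sign by counts, at 0.19 and 0.34. Both small CDK subunits passed 1 TPM, Cks2 at 36.4 and 24.4 TPM and Cks1b at 13.6 and 8.11 TPM. Of the CDK-activating kinase, only Ccnh passed in both libraries, at 1.10 and 2.11 TPM, while Cdk7 had 0.42 and 0.26 TPM and Mnat1 0.19 and 0.40 TPM. By uncorrected counts Cdk7 was above Ccnh in replicate 1 (504 and 324) and below it in replicate 2 (293 and 331). All 5 phosphatases and inhibitory kinases of CDKs passed, led by the activating phosphatase Cdc25b at 88.4 and 61.4 TPM, and Wee1, which restrains Cdk1, had 5.00 and 2.39 TPM.

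Genes of cyclin destruction passed 1 TPM in both libraries in 9 of 10 cases, against 23.9% of nuclear protein-coding genes. Fzr1 and Cdc20, the activators of the anaphase-promoting complex that marks A and B cyclins, had 35.5 and 19.5 TPM and 21.7 and 12.3 TPM. Fbxo5, an inhibitor of that complex, had 23.7 and 18.1 TPM. The receptors for E and D cyclins were lower, Fbxw7 at 2.41 and 1.76 TPM and Ambra1 at 2.76 and 2.22 TPM, and Fbxo31, a cyclin D1 receptor, was under 1 TPM at 0.20 and 0.27. Among regulators of cyclin transcription, 14 of 17 passed, against the same 23.9%. Rb1 led them at 46.0 and 41.4 TPM, then E2f2 at 38.6 and 23.4 TPM and the repressor E2f4 at 34.7 and 18.3 TPM. E2f1 was low, at 2.35 and 0.94 TPM. The activators of late-cycle promoters Mybl2, at 17.5 and 9.64 TPM, and Foxm1, at 11.5 and 7.51 TPM, were present, as were the NF-Y subunits that bind CCAAT, Nfya at 9.27 and 8.62, Nfyb at 10.9 and 9.42 and Nfyc at 6.74 and 8.00 TPM.

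Of 17 other members of the cyclin family, 10 reached 1 TPM in both libraries and 3 reached 10 TPM, set beside 7 and 7 of the 10 cell cycle cyclins. Over nuclear protein-coding genes these shares were 23.9% and 4.79%. The highest were Ccnl2, at 35.3 and 22.3 TPM, and Ccnl1, at 26.6 and 21.7 TPM, both associated with splicing, and Ccni, at 20.2 and 10.1 TPM. Ccnb3, a B-type cyclin of meiosis, had 0 counts in both libraries, as did Ccnjl and Ccno. The median mean level was 1.61 TPM for these 17 genes, 20.2 TPM for the 10 cell cycle cyclins and 0.055 TPM for all nuclear protein-coding genes.

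**Figure D3:**
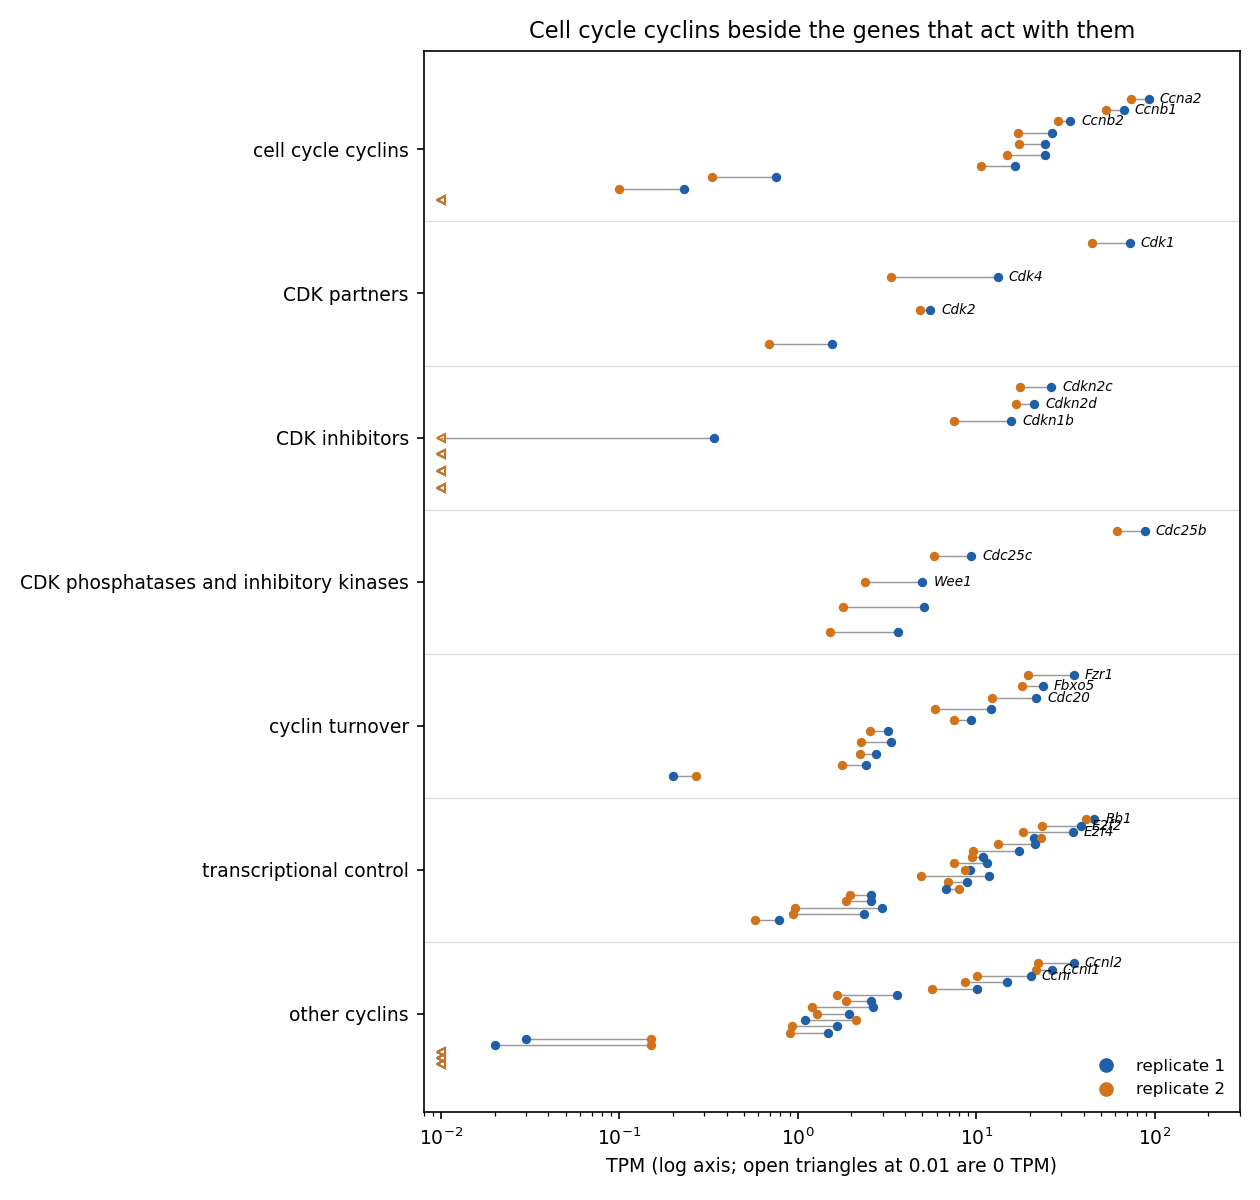
TPM (log axis) in replicate 1 and replicate 2 of the 10 cell cycle cyclins and of the genes of 6 lists that act with them; each line joins both libraries of a gene, open triangles mark 0 TPM, and the 3 highest genes of each list are named. Cdc25b, at 88.4 and 61.4 TPM, and Cdk1, at 72.9 and 44.5 TPM, lie closest to Ccna2 and Ccnb1, and both are below Ccna2 in each library.

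By distance of log2(TPM + 0.1) over the 2 libraries, the nuclear protein-coding genes most like Ccna2 were Wnk1 (95.5 and 73.5 TPM) and Rpl7 (95.1 and 68.1 TPM). Those most like Ccnb1 were Hnrnpf and Arl6ip1, and those most like Ccnb2 were Rps27a and Hist1h2bp. With 2 libraries this likeness says little more than that the levels were close.

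For the comparison of replicate 1 with replicate 2, counts were scaled by TMM, and a single library on each side leaves no replicate check. None of the 9 cyclins whose mean count was 50 or higher differed by 2-fold, where 21.1% of all such genes did, 10.8% higher in replicate 1 and 10.3% higher in replicate 2. Most of that background comes at low counts: among 1150 genes within the range of mean counts of the 7 highest cyclins, 2.35% differed by 2-fold, and none of those 7 did. On the log2 scale replicate 1 over replicate 2 was 0.14 for Ccna2, 0.12 for Ccne1, 0.20 for Ccne2, 0.03 for Ccnf, -0.15 for Ccnd3, -0.19 for Ccnb1 and -0.40 for Ccnb2. The median size of these 7 values was 0.15, and that of the 1150 genes 0.16, so the abundant cyclins lay about as far apart between libraries as other genes of their depth. Ccnd2 and Ccnd1 were higher in replicate 1 by 0.62 and 0.51 on this scale, and Ccnd2 was the only cyclin past 1.5-fold, where 38.2% of genes were.

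These signs depend on the scale. In deposited TPM every expressed cyclin was higher in replicate 1, by 0.23 for Ccnb2 to 1.20 for Ccnd2 and Ccnd1 on the log2 scale, but so was the median of 3384 nuclear protein-coding genes of mean count 1000 or higher, by 0.64 against 0.03 for TMM-scaled counts. After rescaling TPM to nuclear protein-coding genes, replicate 1 over replicate 2 was -0.40 for Ccna2, -0.39 for Ccnb1, -0.50 for Ccnb2, -0.25 for Ccnd3, -0.02 for Ccne1, -0.08 for Ccne2 and -0.10 for Ccnf. All 7 of these cyclins thus changed sign between deposited and rescaled TPM. Between TMM-scaled counts and rescaled TPM, Ccna2, Ccne1, Ccne2 and Ccnf changed sign and Ccnb1, Ccnb2 and Ccnd3 were lower in replicate 1 on each. Ccnd2 and Ccnd1 were higher in replicate 1 on all 3 scales.

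**Figure D4:**
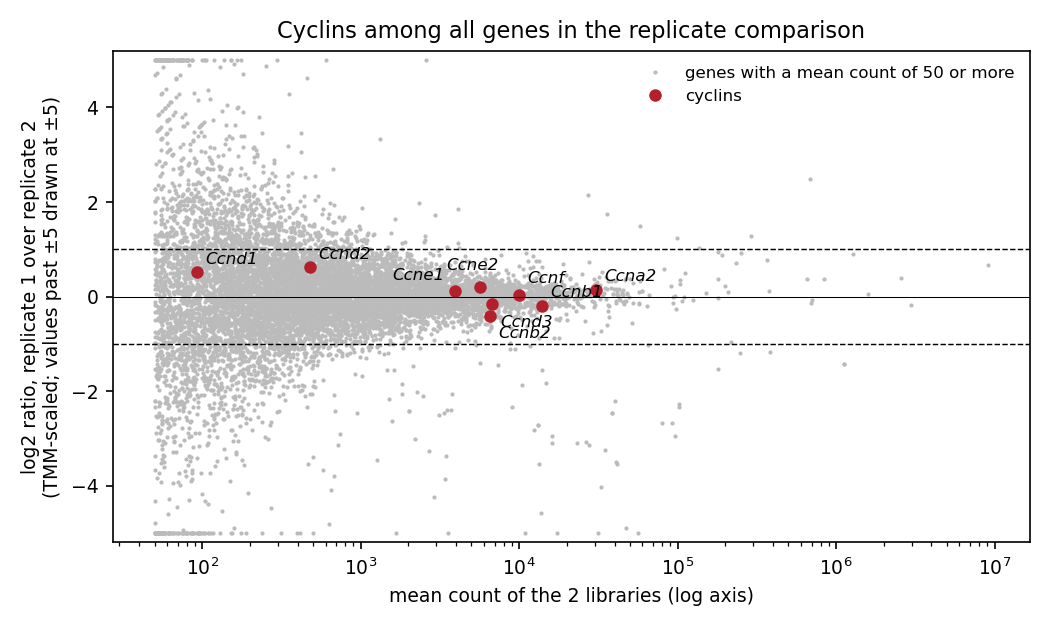
Log2 ratio of replicate 1 over replicate 2 (y axis, TMM-scaled counts) against the mean count of both libraries (x axis, log axis) for all genes whose mean count was 50 or higher (grey) and the 9 cyclins among them (red). The cyclins lie between the dashed lines at 2-fold, and the grey cloud narrows towards the counts of the 7 highest cyclins.

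Transcript tables showed where the reads of each gene were placed. Of the 10 genes, Ccna1, Ccnb2, Ccnd2 and Ccnf have a single transcript in these tables, so their shares are 100% by construction, and Ccnd1 was too low to divide. For the other 5, the leading transcript was a coding one and was the same in both libraries. It differed between libraries in 2235 of 5586 protein-coding genes with more than 1 transcript and at least 100 counts in both. These 5 cyclins had 2840 counts or more in each library, and no such number was computed for genes of similar counts. The leading share of the 5 cyclins had a median of 72.7% (lowest 43.2%, highest 75.4%), and it was 60.4% over those 5586 genes. In TPM it differed by at least 15 percentage points between libraries for Ccna2, Ccnd3 and Ccne2, 3 of 5 genes. Among the 5586 genes 53.2% did, so the count for the cyclins lay near the background. By count share none of these cyclins reached 15 points: Ccna2 had 97.7% and 83.8%, Ccnd3 56.6% and 71.5% and Ccne2 81.6% and 70.1%. No background was computed for count shares.

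**Figure D5:**
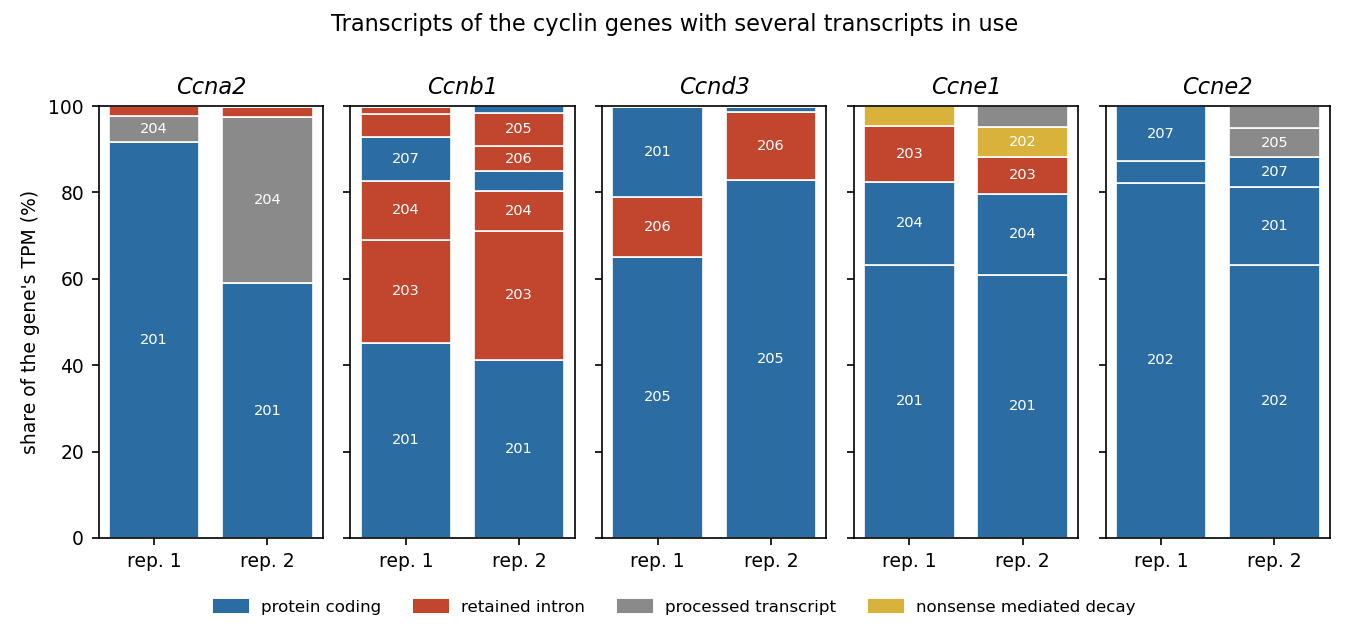
Share of the TPM of each gene (y axis, percent) held by each of its transcripts in replicate 1 (left bar) and replicate 2 (right bar) for the 5 cyclins with several transcripts in use, coloured by annotated biotype; numbers inside are transcript name endings. Retained-intron segments fill 44.4% and 52.7% of Ccnb1, the coding segment 201 of Ccna2 spans 91.7% in replicate 1 and 59.0% in replicate 2, and segment 201 of Ccnd3 is visible in replicate 1 alone.

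Of the 5, Ccnb1 had the highest TPM share in intron-retaining transcripts. Its transcripts annotated as retained intron, which contain intron sequence and no annotated reading frame, held 44.4% of its TPM in replicate 1 and 52.7% in replicate 2 (48.6% ± 5.87). Over the 5586 genes the median was 2.11%, with quartiles of 0 and 24.3%, and 8.79% of the genes had a share at least as high. The largest were Ccnb1-203, of 751 bases, with 23.8% and 29.9%, and Ccnb1-204, of 1075 bases, with 13.7% and 9.31%. The full-length coding transcript Ccnb1-201, of 2489 bases, held 45.2% and 41.2%. By estimated counts the retained-intron share of Ccnb1 was 24.6% and 28.6%, and 13.6% of genes had as much. Ccnd3 was level with it on that measure, at 25.1% and 28.4%. The long retained-intron transcript Ccnb1-206, of 2471 bases, held 5.37% and 5.98% of the Ccnb1 TPM and 8.10% and 9.53% of its counts. The libraries were made from total RNA, and whether reads given to retained-intron transcripts came from RNA not yet spliced was not tested.

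Restricting Ccnb1 to its protein_coding transcripts removed its lead over Ccnb2. On that measure it had 37.4 TPM in replicate 1 and 25.1 TPM in replicate 2, beside 33.7 and 28.8 TPM for Ccnb2, which has 1 transcript in these tables. Ccnb1 over Ccnb2 was then 1.11-fold in replicate 1 and 0.874-fold in replicate 2, so neither B cyclin was the higher one in both libraries. Ccna2 stayed above both in each library, at 85.2 and 43.4 TPM from coding transcripts, 2.27-fold and 1.73-fold over Ccnb1.

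Of the 5, Ccna2 differed most between libraries in the TPM share of its leading transcript, and less than Ccnd3 by count share. Its full-length transcript Ccna2-201, of 2964 bases, held 91.7% of its TPM in replicate 1 and 59.0% in replicate 2, or 97.7% and 83.8% of its counts. The remainder was mostly Ccna2-204, a non-coding processed transcript of 953 bases, with 5.61 TPM in replicate 1 and 28.3 TPM in replicate 2. The deposited credibility intervals for Ccna2-204, from 4.66 to 6.55 TPM and from 26.5 to 29.5 TPM, were far apart. Because of this split the effective length given to the gene was 2574 bases in replicate 1 and 1957 bases in replicate 2, which enters its gene-level TPM.

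Ccnd3 has 21 transcripts in the tables, of which 6 were above 0 TPM in at least 1 library. Of the 21, 13 belong to a distal start and 3 to a proximal start 88416 bases away. The other 5 start in neither group and held 0.165% of the TPM in replicate 1 and 1.09% in replicate 2. The proximal group, whose promoter window is the one with a CCAAT match, held 79.0% of the TPM in replicate 1 and 98.7% in replicate 2. The distal group, whose window had none, held 20.8% and 0.230%. CCAAT was in 37.4% of all windows, and whether it bears on which start is used was not tested. The whole distal sum of replicate 1 was Ccnd3-201, at 5.05 TPM (credibility interval 2.97 to 9.26) and 0.00 TPM in replicate 2 (upper bound 0.242). Ccnd3-201 and the leading proximal transcript Ccnd3-205 have coding sequences of the same length, 876 bases, and the posterior SD of the 1466 counts given to Ccnd3-201 was 481, so its level in replicate 1 was loosely fixed. The retained-intron transcript Ccnd3-206 held 13.9% and 15.9%.

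The E cyclins differed from each other in this respect. Ccne1-201 held 63.3% and 61.0% of the Ccne1 TPM, the shorter coding transcript Ccne1-204 19.2% and 18.8%, and the retained-intron transcript Ccne1-203 12.8% and 8.44%, so the make-up was alike in both libraries. Ccne2-202 held 82.2% of the Ccne2 TPM in replicate 1 and 63.3% in replicate 2, or 75.9% and 62.8% by posterior means. Ccne2-201 held 5.12% and 18.0% of the TPM, and Ccne2-207, also coding, 12.7% and 6.89%. The credibility intervals of Ccne2-201 overlapped between libraries, from 0.399 to 1.41 TPM and from 1.05 to 2.66 TPM. Its 385 and 814 counts had posterior SDs of 119 and 167, so its shares were loosely fixed. Ccne2-201 and Ccne2-202 are both coding, with reading frames of 1209 and 1212 bases.

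Reads near other genes limit some of these values, since whether counting used the strand is not given in the sources used here. Ccna2 shares 510 exon bases with Exosc9 on the opposite strand (827 and 975 counts) and Ccne2 shares 609 with Ints8 (2101 and 1356 counts). Ccnd1 shares 1100 of its 4709 exon bases with LTO1, which had 609 and 297 counts, more than the 130 and 56 of Ccnd1, so the low Ccnd1 level is the least certain. Ccnd3 shares 361 with Bysl. The processed copy Ccnb1-ps had 27.8 and 71.2 estimated counts, and the posterior SD of the Ccnb1 count was 8.66 and 5.52, small beside that count.

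The libraries held 62576357 expected counts in replicate 1 and 36889517 in replicate 2. Of 10 erythroid markers, all but Kit were at 10 TPM or more in both, with sums of 22200 and 10007 TPM. All 7 granulocyte markers were also at 10 TPM or more, with sums of 1190 and 599 TPM, and monocyte and macrophage markers summed to 119 and 71.9 TPM. B cell markers summed to 35.7 and 19.3, T and NK cell markers to 3.94 and 2.34, megakaryocyte markers to 5.31 and 1.85 (Gp1bb at 0 in both) and stem cell markers to 1.99 and 0.59 TPM. How much of the cyclin RNA came from cells other than erythroid ones was not tested.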

How the data were processed

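Both libraries were made with ScriptSeq from 100 ng of RNA, per the labels, with size ranges of 209 to 891 bases in replicate 1 and 186 to 747 in replicate 2. For each, the authors deposited gene and transcript tables built on mm10, and their accompanying notes give GENCODE M4 as annotation. The quantifier is not given in the sources used here, nor is the aligner. Per the file headers, expected counts are estimates that share ambiguous reads between transcripts, and the authors derived TPM by dividing by effective length. The deposited isoform percentages give each transcript's percent of its gene. Credibility bounds, posterior means and posterior SDs are further deposited columns.

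Gene names, biotypes and positions were taken from GENCODE M21 by Ensembl identifier without version (42462 of 43346 rows matched, and all 50 transcripts of the cyclins). Expected counts were rounded and scaled by TMM over all Ensembl genes in edgeR 4.0.16, with a prior count of 0.5; DESeq2 1.42.0 gave alternative size factors. R 4.3.3, Python 3.11.15, pandas 2.3.3, numpy 2.4.6 and matplotlib 3.10.9 were used. The ratio script was tested on simulated data. With 1 group there is no comparison between groups, and no test was run on the 2 libraries and no p-value is given. All 10 cyclins are named, partners come from 8 lists, and transcripts are named when leading or at a mean share of 10% or more. The cyclins and lists were chosen with earlier results of these data known. The planned alignment of cyclin proteins was not run, and protein sequences are not used here. Alternatives covered TPM minimums of 0.5 and 5, posterior means, rescaled TPM, CPM, uncorrected counts, count filters, size factors, leaving out each replicate and, chosen after seeing the data, protein_coding transcripts only.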

Additional observations from a re-analysis of the deposited data

How the results depend on the processing

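No paired analysis was possible because the labels give 1 group. The number of cyclins at 1 TPM or more was 7 under posterior mean TPM, minimums of 0.5 and 5 TPM, either library alone and coding transcripts alone, and 9 with rescaled TPM or CPM. The share of all nuclear protein-coding genes that pass was not computed under these alternatives. Their counts, the 9 included, thus have no background beside them. Without length correction, by expected counts, leading family shares were 67.8% for Ccnb1 and 92.6% for Ccnd3, and Ccne1 fell to 41.3%, below Ccne2. By counts, the log2 ratio averaged over both libraries changed sign for Ccne1 over Ccne2 (-0.51), Ccnb2 over Cdk1 (0.036) and Ccnd3 over Cdkn2c (0.27). It also changed sign for Ccne1 over Cdkn1b (-0.68) and Ccnf over Ccnb2 (0.57). The length correction is the only thing these settings change. The Ccne1 share was 57.8% by posterior means. With protein_coding transcripts only, an alternative chosen after seeing the data, the Ccnb1 share was 49.6% and the Ccne1 share 55.2%. Cyclins 2-fold apart between replicates numbered 2 by deposited TPM, Ccnd2 and Ccnd1. On that scale the median of 3384 abundant nuclear protein-coding genes was itself higher in replicate 1 by 0.64 (log2). The share of all genes past 2-fold in deposited TPM was not computed, so that count has no background beside it. By TMM-scaled counts 1 cyclin passed 1.5-fold, where 38.2% of genes did. Leading transcript shares were 67.4% for Ccnb1 and 87.9% for Ccne1 by counts, and 85.4% for Ccnd1 by posterior means. Depth limits Ccnd1 and Ccna1 most, at 56 counts or fewer in replicate 2.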
